A study of Brassica napus with 36 samples.

Results

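The genes described here are the morning clock MYB genes of rapeseed (Brassica napus): every locus of the deposited table whose Swiss-Prot match names Protein LHY, Protein CCA1 or a Protein REVEILLE (RVE), which gave 38 of 106340 listed genes. By the protein matched, these were 9 LHY, 2 CCA1, 6 RVE1, 2 RVE2, 2 RVE3, 6 RVE4, 2 RVE5, 4 RVE6, 1 RVE7, 1 RVE7-like (RVE7L) and 3 RVE8 loci, 17 of them on the A and 21 on the C subgenome of this allotetraploid. In Arabidopsis, the plant circadian clock is a loop of transcription factors that are made at different times of day. LHY and CCA1 are single-MYB repressors that peak around dawn and hold down evening genes such as TOC1 (also called APRR1), while RVE8 and its close relatives RVE4 and RVE6 bind the same evening element and activate such genes. RVE1, RVE2 and RVE7 belong to a clade that carries clock timing to outputs such as auxin synthesis and seed dormancy, and in Arabidopsis the clock MYB factors also act on the cold-induced CBF genes.

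The 36 leaf RNA libraries, 3 in each of 12 groups, came from the early-maturing varieties HX17 and HX58 and were made to compare chilling and freezing with and without cold acclimation. In CA and FA, seedlings grew for 4 weeks at 20 °C by day and 16 °C by night, were acclimated for 14 days at 4 °C and then stood for 12 h at 4 °C (CA, chilling) or -4 °C (FA, freezing). In CB and FB, seedlings of 6 weeks with no acclimation went straight to 12 h at 4 °C (CB) or -4 °C (FB), and MA and MB are the control groups at 20/16 °C that the study sets against the A and the B treatments. The labels name no transgene or mutation, only the varieties. The lights were on from 6:00 to 20:00. For the acclimated seedlings the 12 h ran from 20:00 to 8:00 with 10 h of dark and 2 h of light. The third leaf from the top was then taken at 8:00 after cold treatment. Whether that hour also holds for the seedlings without acclimation is not said. Neither the hours of the stress without acclimation nor the hour at which the controls were sampled is given in the sources used here. In comparisons with these groups an effect of cold, a different hour of sampling and a shift in the timing of a daily peak cannot be told apart. CA and FA shared the hours of stress and of sampling. Between them an effect of cold and a shift in the timing of a daily peak cannot be told apart. In bulk leaves fewer cells of a type and less RNA per cell cannot be told apart either.

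Counts summed to between 32214015 and 59290772 per library. Leaf markers (170 loci, photosynthesis proteins, 14 of them at 0 everywhere) summed to between 74628 and 241210 CPM (counts scaled to library size), against at most 12.4 for root, 79.6 for seed and 16.98 for flower and pollen markers. The leaf sum was 170450 to 194010 in HX17_MB against 85317 to 110360 in HX17_CB and 90237 to 144420 in HX17_FB, and 134520 to 193850 in HX58_MB against 74628 to 97260 in HX58_CB and 76881 to 106280 in HX58_FB. Its part in the results on these groups was not tested. The study's methods call the libraries of a group biological replicates and another passage of its text calls them technical, and whether they came from separate plants is not said, so that p-values measure the spread between these libraries, which may be technical. The A and C copies of a gene are near-identical and can share reads, which makes the value of a single locus uncertain.

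Of the 38 loci, 7 had a mean count of at most 3.83 per library: 5 LHY loci on chromosome C07 and unplaced C scaffolds and 2 RVE4 loci on A03 and C03, 2 of these 7 with no count in any library. The other 31 had mean counts of 93.6 or more, and all 31 entered at least 1 comparison of a treatment with its control. Summed FPKM (read counts scaled by gene length and library size) of all members was 817 ± 116 (SD, n = 3) in HX17_MA, 1431 ± 318 in HX17_MB, 1831 ± 496 in HX58_MA and 2749 ± 410.1 in HX58_MB. LHY loci alone made up 47.7% to 51.1% of that sum in HX17_MA and 65.4% to 67.9% in HX58_MB. After freezing of acclimated seedlings the composition differed. RVE2 loci, at 0.737% to 1.41% of the sum in HX17_MA and 1.02% to 1.23% in HX58_MA, made up 55.8% to 59.4% in HX17_FA and 59.96% to 61.02% in HX58_FA, while LHY loci made up 7.20% to 9.20% and 8.43% to 9.57%. The lowest totals were those of non-acclimated frozen leaves, with 459 ± 78.6 in HX17_FB and 518 ± 51.1 in HX58_FB.

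**Figure D1:**
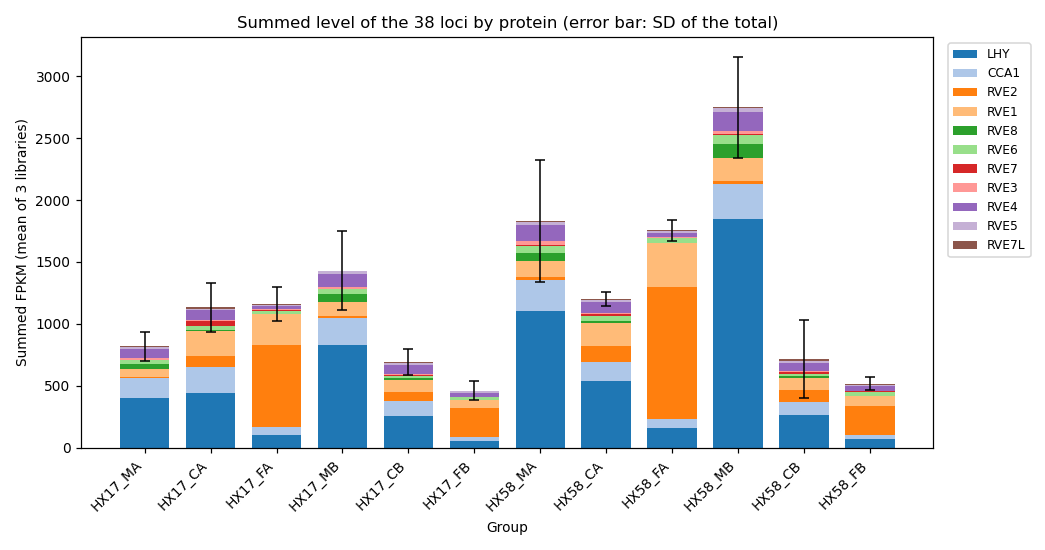
Summed FPKM of the 38 loci in each of the 12 groups (bars stacked by protein, mean of 3 libraries, error bar the SD of the total). LHY and CCA1 fill most of the control bars, and RVE2 fills at least 55.8% of each library's sum in the FA groups.

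Each treatment was tested against the control of its letter with edgeR's quasi-likelihood test on all genes. A locus counts as called where its level differed at least 2 times and the Benjamini-Hochberg adjusted p was under 0.005, with n = 3 against 3 throughout, and every test was repeated with each library left out in turn (leave-one-out fits). CA and FA share the libraries of MA, and CB and FB those of MB. In HX17_CA vs HX17_MA, 6 of 30 tested members were higher (0.608% of all tested genes were called higher) and 0 lower (0.449% of all genes), with 19 at an unadjusted p under 0.05 and 12 called by DESeq2. None of these 6 calls held in all 6 leave-one-out fits, and the count was 0 to 2 without any 1 of the libraries other than HX17_CA replicate 3. In HX17_FA vs HX17_MA, 7 of 30 were higher (5.26% of all genes) and 9 lower (2.63%), and 9 of the 16 calls held in every fit, with a count of 10 without HX17_FA replicate 1. In HX17_CB vs HX17_MB, 5 of 31 were higher (5.98%) and 14 lower (8.19%), with 5 of 19 calls holding in every fit, and against MA in place of MB the number called was 8. Leaving out HX17_MB replicate 1, 2 or 3 gave 5, 11 or 6, and leaving out HX17_CB replicate 1 or 2 gave 10 or 8. In HX17_FB vs HX17_MB, 4 of 31 were higher (12.8%) and 18 lower (13.3%), and 16 of the 22 calls held in every fit.

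In HX58_CA vs HX58_MA, 5 of 30 members were higher (2.6% of all genes) and 5 lower (2.77%), and 4 of these 10 calls held in every leave-one-out fit, with a count of 4 without any 1 of the 3 HX58_CA libraries. In HX58_FA vs HX58_MA, 7 of 30 were higher (9.42%) and 14 lower (7.26%), and 20 of 21 calls held. HX58_CB vs HX58_MB had 2 of 30 higher (14.2%) and 19 lower (11.8%), with 15 of 21 holding and 22 called without HX58_CB replicate 2, the lowest library of its group at most members. HX58_FB vs HX58_MB had 4 of 30 higher (16.1%) and 18 lower (13.6%), with 20 of 22 holding. The median log2 fold change of the tested members was 0.32, -0.59, -1.08 and -1.82 in HX17 for CA, for FA, for CB and for FB, where the median of all tested genes lay between -0.04 and 0.01. In HX58 it was -0.51, -1.34, -1.54 and -2.12, where all genes lay between -0.05 and 0.04. Over the 8 comparisons 19 of the 31 loci were called only lower, 7 only higher, 3 in both directions and 2, both RVE4 loci, in none.

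**Figure D2:**
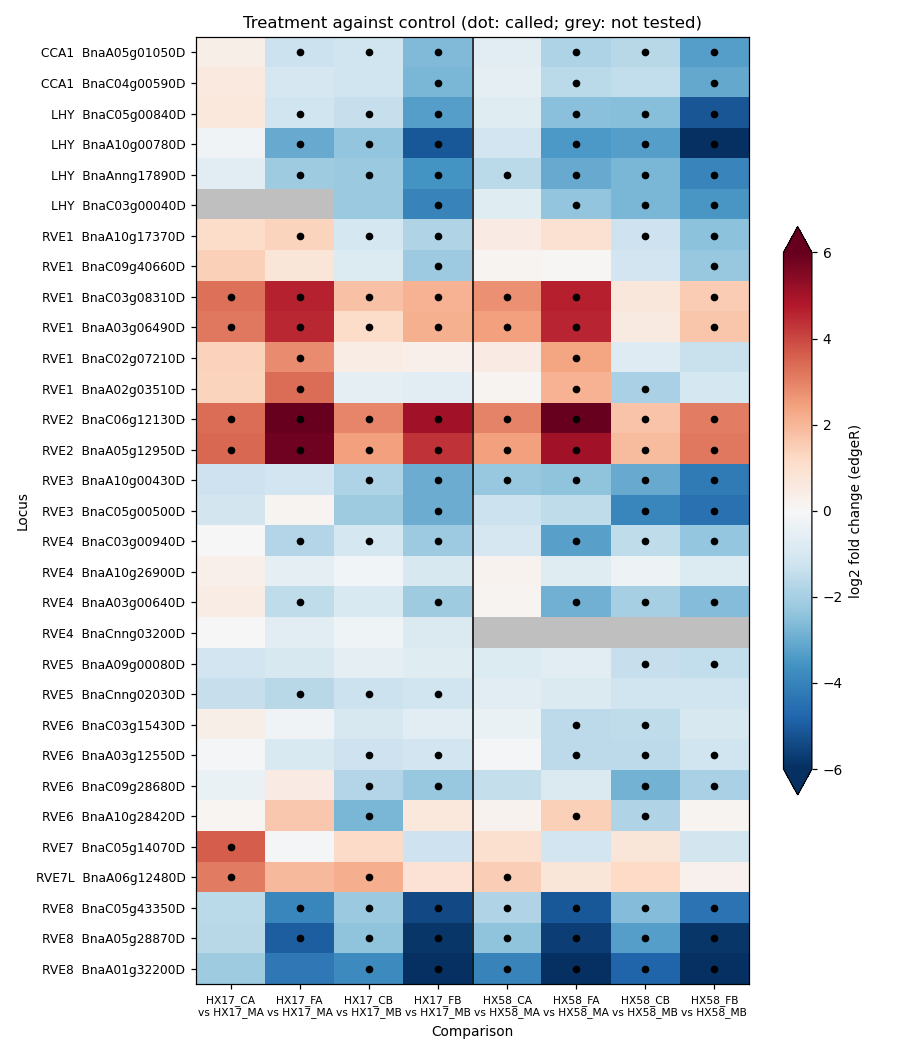
Log2 fold change of each of the 31 loci (down the side) in the 8 comparisons of a treatment with its control (columns), red for higher and blue for lower in the treated leaves, a dot for a called change and grey for a locus not tested. Both RVE2 loci are red and called in all 8 columns, and the LHY, CCA1 and RVE8 loci are blue in every freezing column in which they were tested.

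LHY, the dawn repressor, had the highest level of all members in control leaves. Its 3 leading loci fell after freezing in both varieties and, against MB, after chilling without acclimation. Of its 9 loci, 4 were tested in at least 1 comparison of a treatment with its control, and 1 more, with a mean count of at most 3.83 per library, only in 2 of the interaction fits. The locus on chromosome A10 (BnaA10g00780D, 377609 to 380439, plus strand; coordinates are those of the deposited table, and the sources used here do not give the assembly version) measured 180.0, 165 and 203 FPKM in HX17_MA and 179, 159 and 133 in HX17_CA, which overlapped, with a log2 fold change of -0.21 ± 0.20 (SE, edgeR adjusted p = 0.54). It stood at 14.7, 27.4 and 21.1 in HX17_FA, below all 6 of those libraries. Its log2 level fell by 3.02 ± 0.26 (SE, edgeR adjusted p = 3.98e-05). Without acclimation the same locus measured 371, 270.0 and 508 in HX17_MB, 80.5, 69.7 and 103 in HX17_CB and 14.5, 9.76 and 7.91 in HX17_FB, 3 ranges that did not overlap. It fell by 2.39 ± 0.26 (SE, edgeR adjusted p = 0.000353) after chilling and by 5.08 ± 0.36 (SE, edgeR adjusted p = 1.70e-05) after freezing.

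In HX58, BnaA10g00780D measured 325, 573 and 371 FPKM in MA, 193, 170.0 and 192 in CA and 46.7, 34.6 and 37.9 in FA. The CA libraries lay below the MA libraries, yet the difference of -1.14 ± 0.22 (SE, edgeR adjusted p = 0.00594) missed the threshold, while FA fell by 3.42 ± 0.26 (SE, edgeR adjusted p = 1.48e-05). With no acclimation it measured 784, 766 and 553 in MB, 104, 31.1 and 87.6 in CB and 9.02, 9.21 and 15.5 in FB. It fell by 3.32 ± 0.38 (SE, edgeR adjusted p = 0.000172) and by 5.95 ± 0.37 (SE, edgeR adjusted p = 1.67e-05), a 62.0-fold lower level in frozen leaves. HX58_CB replicate 2 had the lowest LHY level of its group at each of the 4 loci. Ranked by mean, the 12 groups ran from HX58_MB, HX58_MA and HX17_MB down to HX58_FB and HX17_FB, and of the 11 pairs of neighbours in that order 8 overlapped in range.

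The copy on chromosome C05 (BnaC05g00840D, 428975 to 431826) was not called after acclimated chilling either. It measured 162, 135 and 179 FPKM in MA and 281, 233 and 210.1 in CA, all 3 CA libraries above the MA libraries, at a log2 fold change of 0.61 ± 0.21 (SE, edgeR adjusted p = 0.1). HX17_FA had 53.1, 79.3 and 58.7, a fall of 1.22 ± 0.22 (SE, edgeR adjusted p = 0.00413, lost in 4 of 6 leave-one-out fits). In the B groups of HX17 it stood at 334, 248 and 438 in MB, 136, 127 and 182 in CB and 46.5, 29.9 and 21.4 in FB. These groups did not overlap, and the falls were 1.40 ± 0.24 (SE, edgeR adjusted p = 0.00256, lost in 4 of 6 leave-one-out fits) and 3.30 ± 0.35 (SE, edgeR adjusted p = 0.000115). Both falls are from MB. Set against MA, HX17_CB overlapped with the control and only HX17_FB lay below it. HX58 had 262, 457 and 302 in MA, 196, 180.4 and 216 in CA and 71.4, 56.3 and 54.7 in FA, with a difference of -0.73 ± 0.21 (SE, edgeR adjusted p = 0.0383) for CA and a fall of 2.50 ± 0.24 (SE, edgeR adjusted p = 6.31e-05) for FA. Non-acclimated leaves had 626, 621 and 461 in MB, 145, 42.1 and 118 in CB and 13.1, 13.4 and 22.3 in FB. Here too the groups did not overlap. The falls were 2.57 ± 0.37 (SE, edgeR adjusted p = 0.000547) and 5.13 ± 0.34 (SE, edgeR adjusted p = 2.08e-05).

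A further LHY locus on an unplaced A scaffold (BnaAnng17890D) was lower in level but was called in 7 of the 8 comparisons. In HX58 it measured 122, 209 and 151 FPKM in MA and 52.1, 45.1 and 54.7 in CA, with no overlap, and fell by 1.61 ± 0.21 (SE, edgeR adjusted p = 0.00104, lost in 3 of 6 leave-one-out fits). HX58_FA had 21.2, 18.5 and 19.8, a fall of 3.03 ± 0.22 (SE, edgeR adjusted p = 1.29e-05), and the B groups had 252, 274 and 195 in MB, 47.0, 23.4 and 39.9 in CB and 13.5, 12.8 and 19.8 in FB. The last 2 groups lay below every MB library, by 2.76 ± 0.25 (SE, edgeR adjusted p = 6.61e-05) and 3.97 ± 0.28 (SE, edgeR adjusted p = 2.42e-05) on the log2 scale. HX17 had 56.6, 44.5 and 82.8 in MA, 44.4, 45.2 and 28.8 in CA and 8.99, 14.3 and 16.3 in FA, where MA and CA overlapped at -0.62 ± 0.29 (SE, edgeR adjusted p = 0.2) and FA fell by 2.12 ± 0.30 (SE, edgeR adjusted p = 0.000837, lost without HX17_FA replicate 1). Non-acclimated HX17 had 98.1, 91.8 and 117 in MB, 16.5, 22.9 and 37.5 in CB and 10.1, 9.57 and 4.42 in FB, with falls of 2.21 ± 0.29 (SE, edgeR adjusted p = 0.000883, lost without HX17_MB replicate 1 or HX17_MB replicate 3) and 3.59 ± 0.34 (SE, edgeR adjusted p = 6.31e-05).

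CCA1, the partner of LHY as dawn repressor, had 2 loci, and the one on A05 was called lower in the same 6 comparisons as the LHY loci on A10 and C05. The locus on A05 (BnaA05g01050D, 582559 to 584926, minus strand) measured 92.1, 91.5 and 117 FPKM in HX17_MA, 152, 125 and 106 in HX17_CA and 31.7, 49.0 and 34.9 in HX17_FA. MA and CA overlapped (0.36 ± 0.22, SE, edgeR adjusted p = 0.32), whereas FA lay below both and fell by 1.28 ± 0.23 (SE, edgeR adjusted p = 0.00352, lost in 5 of 6 leave-one-out fits). In HX17_MB it stood at 142, 118 and 158, in HX17_CB at 56.2, 66.0 and 89.3 and in HX17_FB at 26.8, 20.7 and 15.7, 3 ranges without overlap. The falls were 1.20 ± 0.21 (SE, edgeR adjusted p = 0.00313, lost in 5 of 6 leave-one-out fits) and 2.65 ± 0.26 (SE, edgeR adjusted p = 7.57e-05). In HX58 the values were 137, 217 and 135 in MA, 108, 87.9 and 107 in CA and 52.3, 39.2 and 44.3 in FA, a difference of -0.64 ± 0.22 (SE, edgeR adjusted p = 0.0636) for CA and a fall of 1.86 ± 0.23 (SE, edgeR adjusted p = 0.000280) for FA. In the B groups of HX58 they were 193, 211 and 160.2 in MB, 87.1, 30.8 and 73.1 in CB and 13.3, 16.8 and 26.2 in FB. Replicate 2 of CB was the low one again. The falls were 1.64 ± 0.30 (SE, edgeR adjusted p = 0.00197, lost in 4 of 6 leave-one-out fits) and 3.33 ± 0.31 (SE, edgeR adjusted p = 7.11e-05).

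The CCA1 locus on C04 (BnaC04g00590D) measured 85.9, 70.2 and 98.0 FPKM in HX17_MB and 15.98, 13.95 and 6.54 in HX17_FB, and 96.9, 96.5 and 86.2 in HX58_MB against 7.55, 9.62 and 16.7 in HX58_FB. Frozen leaves without acclimation were thus far below their controls, by 2.72 ± 0.34 (SE, edgeR adjusted p = 0.000268) in HX17 and 3.05 ± 0.34 (SE, edgeR adjusted p = 0.000165) in HX58. It had 73.0, 106 and 74.3 in HX58_MA and 33.5, 23.4 and 27.9 in HX58_FA, a fall of 1.60 ± 0.21 (SE, edgeR adjusted p = 0.000442). The other 5 comparisons were not called, at log2 fold changes of 0.60 (HX17_CA), -1.03 (HX17_FA), -1.18 (HX17_CB), -0.60 (HX58_CA) and -1.46 (HX58_CB).

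**Figure D3:**
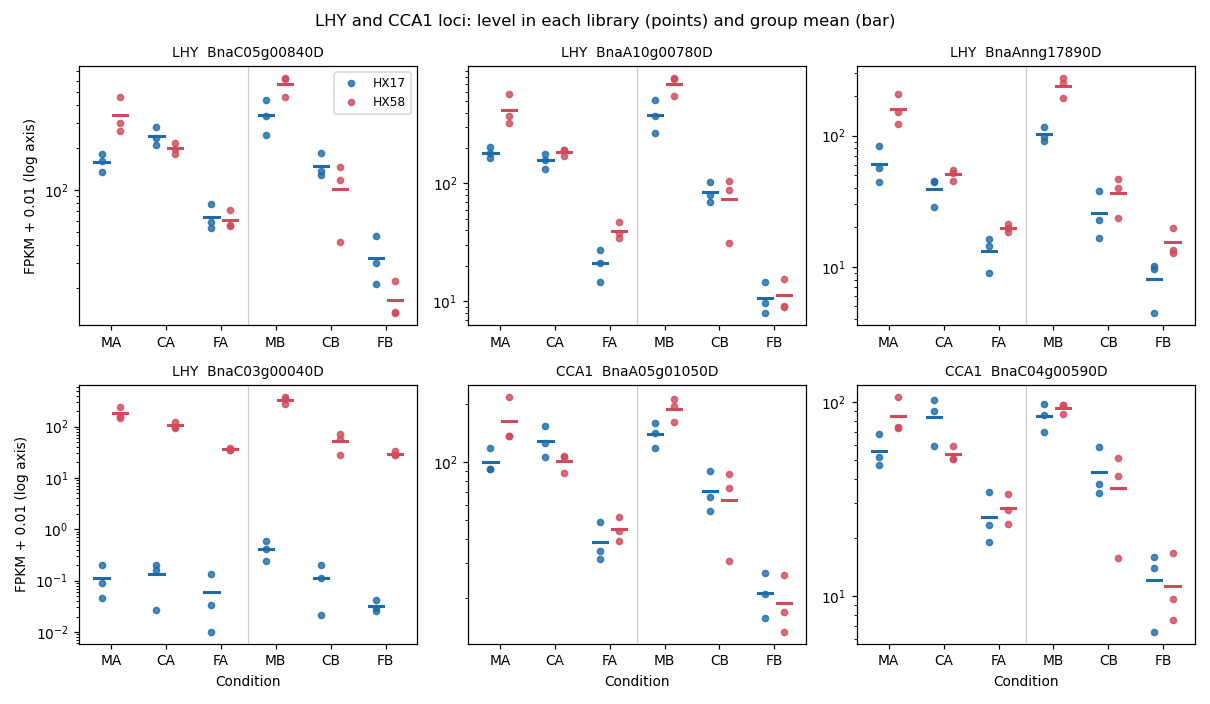
FPKM + 0.01 on a log axis for 4 LHY and 2 CCA1 loci in each library (points; bars are group means) over the 6 conditions, HX17 in blue and HX58 in red. In each panel FA and FB lie below MA and MB in both varieties, except for the LHY locus BnaC03g00040D in HX17, which had at most 32 counts in any library.

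RVE8, an activator of evening genes in Arabidopsis, showed the deepest falls among the members. All 3 of its loci fell in HX58 in every treatment and in HX17 after chilling and freezing without acclimation. The locus on C05 (BnaC05g43350D, 40263505 to 40266138) measured 13.4, 15.3 and 29.7 FPKM in HX17_MA, 7.55, 7.43 and 3.83 in HX17_CA and 0.331, 2.13 and 1.04 in HX17_FA, with no overlap. The difference for CA was -1.61 ± 0.38 (SE, edgeR adjusted p = 0.0325), short of the threshold, and the fall for FA 3.93 ± 0.56 (SE, edgeR adjusted p = 0.000889, lost without HX17_FA replicate 3). In HX17_MB it had 25.04, 21.9 and 33.04, in HX17_CB 2.68, 9.17 and 8.24 and in HX17_FB 0.540, 0.896 and 0.378, again apart, with falls of 2.22 ± 0.40 (SE, edgeR adjusted p = 0.00346, lost in 5 of 6 leave-one-out fits) and 5.40 ± 0.34 (SE, edgeR adjusted p = 1.01e-05). HX58 had 21.9, 36.3 and 19.6 in MA, 10.5, 5.85 and 5.46 in CA and 0.938, 0.460 and 0.905 in FA. The falls were 1.79 ± 0.33 (SE, edgeR adjusted p = 0.00494, lost in 6 of 6 leave-one-out fits) and 5.10 ± 0.37 (SE, edgeR adjusted p = 1.25e-05). In the B groups HX58 had 47.2, 53.6 and 42.8 in MB, 12.2, 2.45 and 11.002 in CB and 2.06, 3.08 and 1.73 in FB. The fall after chilling was 2.59 ± 0.43 (SE, edgeR adjusted p = 0.00112) and after freezing 4.42 ± 0.23 (SE, edgeR adjusted p = 1.04e-05). In the order of the 12 groups the 4 control groups came first, then the 4 chilled groups, then the 4 frozen groups, and 8 of the 11 neighbouring pairs overlapped.

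The RVE8 locus on A05 (BnaA05g28870D) repeated this order of blocks in HX17, with 13.4, 14.4 and 20.6 FPKM in MA, 6.25, 6.13 and 2.63 in CA and 0.131, 0.833 and 0.429 in FA. CA differed by -1.67 ± 0.36 (SE, edgeR adjusted p = 0.0245) and FA fell by 4.96 ± 0.50 (SE, edgeR adjusted p = 0.000103). Its B groups had 20.99, 17.1 and 26.3 in MB, 3.48, 4.86 and 5.81 in CB and 0.387, 0.367 and 0.288 in FB, with falls of 2.40 ± 0.24 (SE, edgeR adjusted p = 0.000272) and 5.85 ± 0.28 (SE, edgeR adjusted p = 4.96e-06). The last is a 57.8-fold lower level. In HX58 it measured 21.1, 34.8 and 18.9 in MA, 5.75, 4.41 and 3.51 in CA and 0.494, 0.621 and 0.387 in FA, falling by 2.40 ± 0.31 (SE, edgeR adjusted p = 0.000862, lost in 3 of 6 leave-one-out fits) and 5.64 ± 0.34 (SE, edgeR adjusted p = 4.88e-06). The B groups of HX58 had 36.5, 35.5 and 28.5 in MB, 5.43, 1.67 and 3.75 in CB and 0.564, 0.629 and 0.604 in FB, with falls of 3.29 ± 0.32 (SE, edgeR adjusted p = 8.16e-05) and 5.82 ± 0.19 (SE, edgeR adjusted p = 5.44e-06).

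The third RVE8 locus, on A01 (BnaA01g32200D), came close to no counts after freezing. Its counts per library were 325, 183 and 366 in HX17_MB and 2, 0 and 3 in HX17_FB. Summed over the 3 libraries and scaled by library totals, MB was 228 times FB, with a 95% counting interval of 97.5 to 705 that leaves out the spread between replicates. In HX58 the counts were 1022, 1341 and 790 in MB and 14, 17 and 2 in FB, a ratio of 107 with an interval of 76.3 to 156. Acclimated freezing in HX58 took them from 334, 865 and 234 in MA to 8, 2 and 1 in FA, a ratio of 156 with an interval of 87.1 to 314. These 3 comparisons were called lower, with edgeR adjusted p of 2.15e-05, 2.08e-05 and 4.31e-05. Chilling without acclimation gave falls of 3.81 ± 0.53 (SE, edgeR adjusted p = 0.00106, lost without HX17_MB replicate 1 or HX17_MB replicate 3) in HX17 and 4.81 ± 0.29 (SE, edgeR adjusted p = 1.98e-05) in HX58, and chilling after acclimation one of 3.99 ± 0.58 (SE, edgeR adjusted p = 0.00153, lost in 3 of 6 leave-one-out fits) in HX58. The 2 comparisons of HX17 with MA were not called, at log2 fold changes of -2.11 for CA and -4.30 for FA (edgeR adjusted p = 0.00565).

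RVE6, a close relative of RVE8, had 4 loci, all of which were called lower in HX58_CB. The leading locus on C03 (BnaC03g15430D) measured 22.1, 28.8 and 23.6 FPKM in HX58_MA, 19.5, 16.6 and 17.6 in HX58_CA and 8.24, 8.81 and 8.40 in HX58_FA. It fell after freezing by 1.56 ± 0.17 (SE, edgeR adjusted p = 0.000145), and the chilled level differed by -0.42 ± 0.19 (SE, edgeR adjusted p = 0.16). In HX58_MB it had 25.7, 26.4 and 18.3, in HX58_CB 10.2, 5.93 and 9.29 and in HX58_FB 11.8, 12.98 and 12.04. The chilled leaves were the lowest, at a fall of 1.51 ± 0.20 (SE, edgeR adjusted p = 0.000326), and freezing differed by -0.95 ± 0.15 (SE, edgeR adjusted p = 0.00103), just under a fold change of 2. None of the 4 treatments was called in HX17, whose libraries held 7.51 to 10.5 in MA, 8.65 to 12.7 in CA, 5.50 to 8.11 in FA, 9.71 to 11.7 in MB, 4.91 to 7.999 in CB and 5.20 to 7.28 in FB.

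The RVE6 locus on A03 (BnaA03g12550D) measured 22.8, 21.7 and 17.8 FPKM in HX58_MB, 7.86, 6.82 and 6.75 in HX58_CB and 8.99, 9.13 and 9.22 in HX58_FB. Both treatments lay below the control, by 1.56 ± 0.19 (SE, edgeR adjusted p = 0.000229) and 1.21 ± 0.15 (SE, edgeR adjusted p = 0.000288). HX58_MA had 18.6, 21.3 and 18.7 and HX58_FA 6.09, 7.09 and 6.86, a fall of 1.56 ± 0.17 (SE, edgeR adjusted p = 0.000145), with HX58_CA at 12.5, 17.6 and 21.1, overlapping with MA (-0.14 ± 0.23, SE, edgeR adjusted p = 0.72). In HX17 it had 15.4, 13.5 and 17.3 in MB, 5.93, 7.48 and 9.10 in CB and 6.16, 7.46 and 6.69 in FB. The falls were 1.25 ± 0.21 (SE, edgeR adjusted p = 0.00235, lost in 5 of 6 leave-one-out fits) and 1.13 ± 0.19 (SE, edgeR adjusted p = 0.00121, lost without HX17_MB replicate 1 or HX17_MB replicate 3). The A groups of HX17 had 11.3, 13.8 and 14.9 in MA, 12.3, 13.2 and 12.1 in CA and 4.44, 9.93 and 5.14 in FA, with neither treatment called (-0.08 and -0.93). Of the other 2 RVE6 loci, BnaC09g28680D was called lower in all 4 comparisons with MB, at log2 fold changes of -2.85 to -1.77. The call in HX17_CB was lost in 5 of 6 leave-one-out fits and that in HX58_CB without HX58_CB replicate 3. Its MB libraries lay above all MA libraries in both varieties. Against MA, HX17_CB (3.03 to 5.64 FPKM) overlapped with HX17_MA (3.84 to 6.37), while HX17_FB, HX58_CB and HX58_FB lay below every MA library of their variety. The other, BnaA10g28420D, was called lower after chilling without acclimation (-2.74 in HX17 and -1.82 in HX58) and higher in HX58_FA (1.45). The lower calls were each lost in 4 of 6 leave-one-out fits and the higher one without HX58_MA replicate 1.

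RVE4, which shares with RVE8 the activation of evening genes and of CBF genes in the cold in Arabidopsis, had 4 tested loci, and its leading locus on C03 (BnaC03g00940D) was called lower in 6 of 8 comparisons. It measured 67.9, 87.6 and 76.4 FPKM in HX58_MA, 36.3, 29.3 and 44.3 in HX58_CA and 6.79, 9.97 and 7.68 in HX58_FA, 3 ranges apart. Freezing gave a fall of 3.25 ± 0.21 (SE, edgeR adjusted p = 6.66e-06) and chilling a difference of -1.02 ± 0.20 (SE, edgeR adjusted p = 0.00726). HX58_MB had 81.9, 77.8 and 71.3, HX58_CB 36.95, 17.7 and 30.5 and HX58_FB 16.2, 16.5 and 13.9, with falls of 1.51 ± 0.23 (SE, edgeR adjusted p = 0.000672, lost without HX58_CB replicate 3) and 2.34 ± 0.16 (SE, edgeR adjusted p = 2.21e-05). In HX17 it had 29.7, 31.1 and 38.6 in MA, 37.9, 32.8 and 26.6 in CA and 8.93, 7.60 and 10.4 in FA. MA and CA overlapped, and FA fell by 1.78 ± 0.24 (SE, edgeR adjusted p = 0.000617). The B groups of HX17 had 51.6, 44.9 and 59.6 in MB, 23.8, 30.7 and 31.4 in CB and 9.71, 12.9 and 10.2 in FB, with falls of 1.08 ± 0.18 (SE, edgeR adjusted p = 0.00246, lost in 5 of 6 leave-one-out fits) and 2.19 ± 0.20 (SE, edgeR adjusted p = 5.72e-05). Set against MA, HX17_CB overlapped with the control and HX17_FB lay below it. Among the other loci, named here after their values were seen, BnaA03g00640D was called lower in 5 comparisons (log2 fold changes of -2.87 in HX58_FA and -1.51 in HX17_FA). Its call in HX17_FA was lost in 5 of 6 leave-one-out fits and the other 4 held in all. BnaA10g26900D and BnaCnng03200D were called in none.

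RVE3 and RVE5 complete the group that Arabidopsis studies place with RVE8. RVE3 on A10 (BnaA10g00430D) had 25.2, 31.1 and 27.9 FPKM in HX58_MA, 6.85, 5.73 and 3.99 in HX58_CA and 6.01, 4.43 and 5.26 in HX58_FA, and the CA and FA ranges overlapped. The falls were 2.29 ± 0.25 (SE, edgeR adjusted p = 0.000407) and 2.44 ± 0.19 (SE, edgeR adjusted p = 1.81e-05). In HX58_MB it had 22.5, 15.5 and 20.7, in HX58_CB 4.18, 1.07 and 2.62 and in HX58_FB 1.35, 0.926 and 0.898, with falls of 3.00 ± 0.39 (SE, edgeR adjusted p = 0.000313) and 4.25 ± 0.28 (SE, edgeR adjusted p = 2.09e-05). HX17 had 14.1, 10.5 and 11.5 in MB, 3.45, 3.86 and 4.39 in CB and 1.62, 1.93 and 0.874 in FB, where it fell by 1.84 ± 0.22 (SE, edgeR adjusted p = 0.000534) and 2.96 ± 0.33 (SE, edgeR adjusted p = 0.000139). Its A groups were 11.6, 13.6 and 10.03 in MA, 4.13, 4.26 and 6.80 in CA and 5.68, 4.22 and 4.70 in FA. The treated libraries lay below the control in both, but neither passed the threshold (-1.22 and -1.16, edgeR adjusted p = 0.0303 and 0.0129). The second RVE3 locus, BnaC05g00500D, was called lower in 3 comparisons, of which HX17_FB was lost without HX17_MB replicate 1 or 3. Of the RVE5 loci, BnaA09g00080D was called lower in HX58_CB and in HX58_FB, the latter lost in 4 of 6 leave-one-out fits, and BnaCnng02030D in 3 comparisons of HX17, each lost in 5 of 6.

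**Figure D4:**
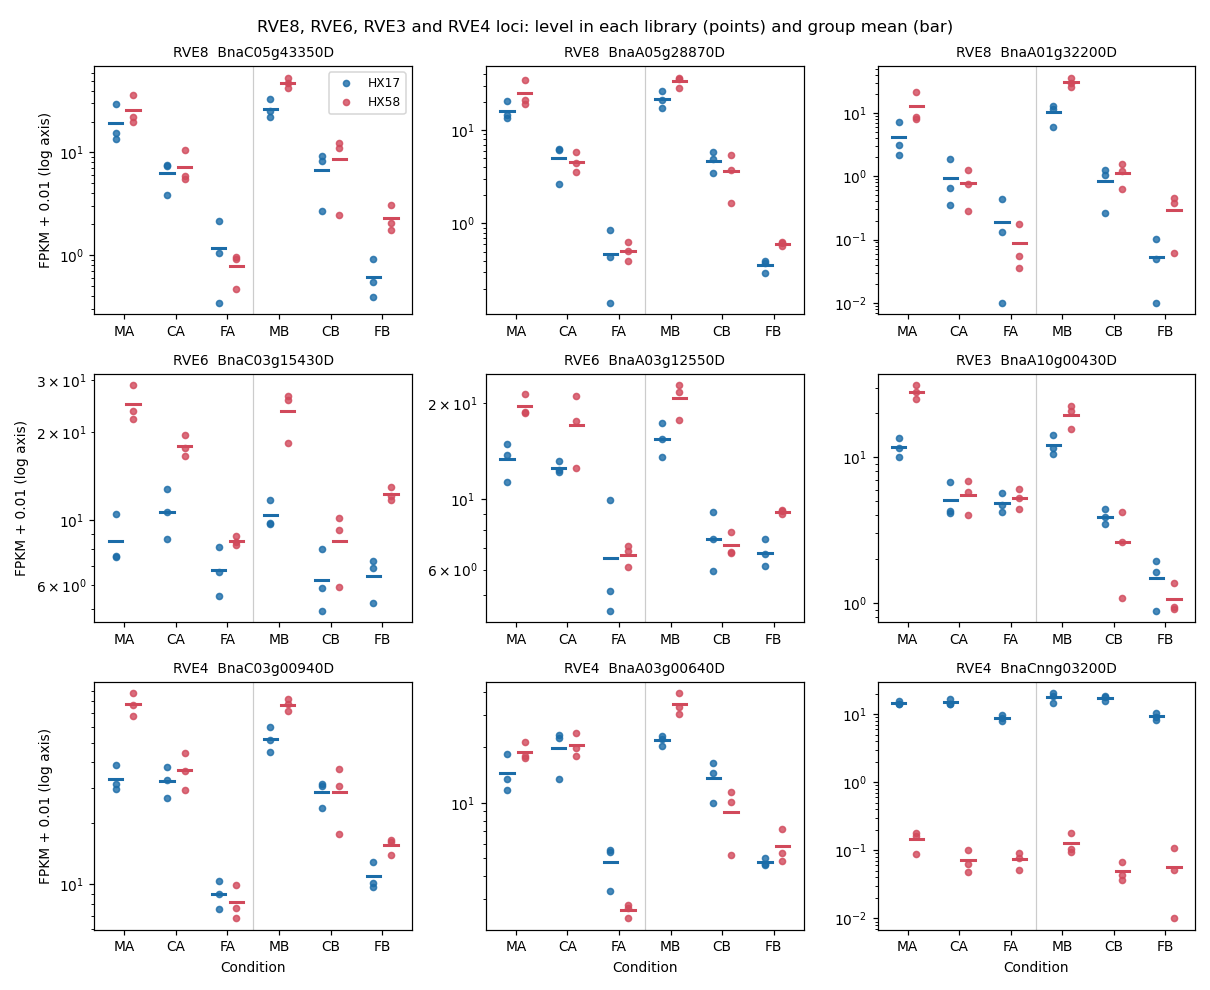
FPKM + 0.01 on a log axis for 3 RVE8, 2 RVE6, 1 RVE3 and 3 RVE4 loci in each library (points; bars are group means), HX17 in blue and HX58 in red. The RVE8 panels step down from control to chilled to frozen leaves, and the RVE4 locus BnaCnng03200D had at most 13 counts in every HX58 library.

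RVE2, also known as CIR1 and linked in Arabidopsis to clock period and seed dormancy, moved the opposite way. Both of its loci rose in all 8 comparisons, the only members to do so. The locus on C06 (BnaC06g12130D, 14443708 to 14445438, minus strand) measured 4.15, 2.50 and 2.38 FPKM in HX17_MA, 40.2, 27.8 and 26.5 in HX17_CA and 371, 382 and 373 in HX17_FA. The 3 groups were far apart, with rises of 3.37 ± 0.34 (SE, edgeR adjusted p = 0.00150, lost in 5 of 6 leave-one-out fits) and 7.05 ± 0.34 (SE, edgeR adjusted p = 2.92e-06). Freezing after acclimation thus took it to a 132-fold higher level. Without acclimation it had 2.85, 2.70 and 3.88 in HX17_MB, 32.2, 24.9 and 27.3 in HX17_CB and 103, 105 and 85.0 in HX17_FB, with rises of 2.95 ± 0.22 (SE, edgeR adjusted p = 7.86e-05) and 5.02 ± 0.24 (SE, edgeR adjusted p = 4.96e-06). In HX58 it had 7.49, 10.8 and 5.91 in MA, 62.1, 61.9 and 59.9 in CA and 656, 618 and 584 in FA. The rises were 2.97 ± 0.25 (SE, edgeR adjusted p = 0.000142) and 6.24 ± 0.28 (SE, edgeR adjusted p = 1.56e-06). The B groups of HX58 had 12.1, 12.8 and 9.55 in MB, 55.0, 25.1 and 36.3 in CB and 95.1, 92.5 and 109 in FB, with rises of 1.70 ± 0.24 (SE, edgeR adjusted p = 0.000440) and 3.09 ± 0.19 (SE, edgeR adjusted p = 1.64e-05). In the order of the 12 groups HX58_FA and HX17_FA led, followed by both FB groups, the 4 chilled groups and the 4 controls, and 5 of the 11 neighbouring pairs overlapped.

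The RVE2 locus on A05 (BnaA05g12950D, 7623378 to 7625095) had 6.83, 4.66 and 4.60 FPKM in HX17_MA, 69.1, 48.2 and 57.4 in HX17_CA and 266, 353 and 243 in HX17_FA. Again no groups overlapped, and the rises were 3.43 ± 0.29 (SE, edgeR adjusted p = 0.000713, lost without HX17_MA replicate 1 or HX17_MA replicate 3) and 5.83 ± 0.31 (SE, edgeR adjusted p = 4.05e-06). In HX17_MB it had 7.46, 5.75 and 8.06, in HX17_CB 46.3, 51.3 and 40.5 and in HX17_FB 113, 178 and 123, rising by 2.48 ± 0.19 (SE, edgeR adjusted p = 9.41e-05) and 4.34 ± 0.26 (SE, edgeR adjusted p = 9.35e-06). HX58 gave 10.5, 18.7 and 10.6 in MA, 70.1, 70.8 and 69.0 in CA and 475, 431 and 433 in FA. These were rises of 2.46 ± 0.26 (SE, edgeR adjusted p = 0.000327) and 5.06 ± 0.28 (SE, edgeR adjusted p = 3.20e-06). Its B groups had 15.5, 13.9 and 15.05 in MB, 83.4, 31.8 and 63.0 in CB and 144, 138 and 124 in FB, rising by 1.91 ± 0.28 (SE, edgeR adjusted p = 0.000597) and 3.15 ± 0.19 (SE, edgeR adjusted p = 1.65e-05). HX58_CB replicate 2 was again the lowest of its group, so that it was low at loci that rose and at loci that fell.

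RVE1, which in Arabidopsis promotes auxin synthesis and seed dormancy, split by locus. A pair on A03 and C03 rose in nearly every treatment, whereas the pair with the higher level in control leaves, on A10 and C09, fell after freezing without acclimation. The C03 locus (BnaC03g08310D) measured 2.90, 3.04 and 2.95 FPKM in HX17_MA, 42.9, 30.1 and 14.6 in HX17_CA and 64.0, 80.3 and 60.1 in HX17_FA. Controls stayed under every treated library, and the rises were 3.31 ± 0.40 (SE, edgeR adjusted p = 0.00287, lost in 5 of 6 leave-one-out fits) and 4.62 ± 0.25 (SE, edgeR adjusted p = 4.05e-06). Without acclimation it had 5.20, 3.33 and 7.42 in HX17_MB, 16.1, 22.3 and 23.2 in HX17_CB and 24.1, 24.9 and 14.4 in HX17_FB, with rises of 1.74 ± 0.28 (SE, edgeR adjusted p = 0.00204, lost in 3 of 6 leave-one-out fits) and 2.07 ± 0.32 (SE, edgeR adjusted p = 0.000770, lost without HX17_MB replicate 1). HX58 had 3.08, 4.73 and 2.26 in MA, 25.9, 20.8 and 19.6 in CA and 80.6, 94.3 and 88.0 in FA. It rose by 2.76 ± 0.30 (SE, edgeR adjusted p = 0.000432) and 4.68 ± 0.30 (SE, edgeR adjusted p = 6.16e-06). In HX58_MB it had 8.06, 9.995 and 5.27, in HX58_CB 20.4, 6.64 and 11.9 and in HX58_FB 19.6, 18.2 and 29.01. Only FB was called there (1.53 ± 0.27, SE, edgeR adjusted p = 0.00155, lost without HX58_MB replicate 1), CB overlapping with MB at 0.68 ± 0.32 (SE, edgeR adjusted p = 0.1).

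Its counterpart on A03 (BnaA03g06490D) measured 2.35, 1.57 and 1.43 FPKM in HX17_MA, 22.1, 15.6 and 10.6 in HX17_CA and 37.1, 41.7 and 36.7 in HX17_FA, and 1.18, 3.49 and 3.19 in HX58_MA, 12.2, 13.3 and 15.5 in HX58_CA and 64.6, 63.6 and 60.1 in HX58_FA. In both varieties the frozen libraries were highest. The rises in FA were 4.52 ± 0.30 (SE, edgeR adjusted p = 1.00e-05) in HX17 and 4.59 ± 0.35 (SE, edgeR adjusted p = 1.81e-05) in HX58, and those in CA 3.16 ± 0.37 (SE, edgeR adjusted p = 0.00276, lost in 5 of 6 leave-one-out fits) and 2.46 ± 0.36 (SE, edgeR adjusted p = 0.00166, lost in 4 of 6 leave-one-out fits). In the B groups HX17 had 3.23, 3.14 and 3.87 in MB, 7.97, 8.69 and 8.995 in CB and 12.3, 22.2 and 8.58 in FB, and HX58 had 5.21, 5.09 and 4.99 in MB, 11.9, 4.23 and 7.50 in CB and 16.1, 15.5 and 18.5 in FB. Freezing gave rises of 2.14 ± 0.34 (SE, edgeR adjusted p = 0.000920, lost without HX17_MB replicate 1 or HX17_MB replicate 3) in HX17 and 1.69 ± 0.19 (SE, edgeR adjusted p = 0.000162) in HX58. Chilling gave one of 1.11 ± 0.19 (SE, edgeR adjusted p = 0.00294, lost in 6 of 6 leave-one-out fits) in HX17, while HX58_CB differed by 0.54 ± 0.30 (SE, edgeR adjusted p = 0.16).

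The RVE1 locus on A10 (BnaA10g17370D, 12883783 to 12885542) had 28.5, 23.5 and 26.7 FPKM in HX17_MA, 63.7, 53.1 and 52.7 in HX17_CA and 62.5, 64.0 and 56.4 in HX17_FA. Both treatments lay above the control, and FA was called (1.32 ± 0.22, SE, edgeR adjusted p = 0.00211, lost in 5 of 6 leave-one-out fits) but CA was not (1.11 ± 0.21, SE, edgeR adjusted p = 0.0158). In HX17_MB it had 43.0, 39.5 and 52.3, in HX17_CB 24.2, 26.2 and 23.6 and in HX17_FB 13.1, 14.3 and 9.13. Without acclimation it thus fell from MB, by 1.08 ± 0.16 (SE, edgeR adjusted p = 0.00166, lost in 5 of 6 leave-one-out fits) and 1.82 ± 0.23 (SE, edgeR adjusted p = 0.000275). HX58 had 31.7, 58.7 and 44.7 in MA, 52.7, 64.6 and 63.0 in CA and 83.9, 89.2 and 84.5 in FA, with neither called (0.48 and 0.93). Its B groups had 83.5, 72.5 and 59.2 in MB, 41.2, 17.8 and 35.3 in CB and 12.8, 11.5 and 15.3 in FB. There it fell by 1.26 ± 0.25 (SE, edgeR adjusted p = 0.00296, lost in 4 of 6 leave-one-out fits) and 2.45 ± 0.21 (SE, edgeR adjusted p = 4.58e-05). Set against MA, CB overlapped with the control in both varieties, and FB lay below it in both.

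The C09 locus (BnaC09g40660D) was called lower in FB alone, where it had 15.2, 14.4 and 7.73 FPKM against 53.3, 59.7 and 63.3 in HX17_MB, and 15.99, 15.5 and 26.1 against 105, 91.1 and 83.6 in HX58_MB. The falls were 2.17 ± 0.28 (SE, edgeR adjusted p = 0.000318) and 2.29 ± 0.27 (SE, edgeR adjusted p = 0.000232). In HX17_CA it had 98.6, 85.6 and 75.7 against 33.9, 25.9 and 38.3 in HX17_MA, all 3 libraries higher, at 1.41 ± 0.23 (SE, edgeR adjusted p = 0.00926). The other 2 RVE1 loci, BnaC02g07210D and BnaA02g03510D, rose in FA of both varieties, by log2 fold changes of 2.07 to 3.37, with BnaA02g03510D lower in HX58_CB (-1.95), a call lost in 5 of 6 leave-one-out fits.

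RVE7, known in Arabidopsis as EPR1, an early phytochrome-responsive gene, was highest in acclimated chilled leaves of HX17. Its locus on C05 (BnaC05g14070D, 8141626 to 8143450) measured 3.02, 1.72 and 4.68 FPKM in HX17_MA, 41.5, 41.9 and 34.5 in HX17_CA and 1.71, 4.35 and 2.35 in HX17_FA. CA stood far above the other groups, with a rise of 3.65 ± 0.37 (SE, edgeR adjusted p = 0.00150, lost in 3 of 6 leave-one-out fits), and FA overlapped with MA (-0.07 ± 0.44, SE, edgeR adjusted p = 0.93). In HX58 it had 3.54, 6.38 and 6.01 in MA, 6.15, 14.7 and 9.04 in CA and 1.23, 2.40 and 3.54 in FA, where MA and CA overlapped (0.98 ± 0.35, SE, edgeR adjusted p = 0.0745). HX17_MB had 3.17, 2.81 and 6.22, HX17_CB 8.22, 12.8 and 10.6 and HX17_FB 1.84, 1.49 and 1.45, with differences of 1.17 and -1.26 that were not called. The B groups of HX58 had 10.8, 14.8 and 3.49 in MB, 24.7, 5.26 and 19.2 in CB and 3.44, 4.33 and 5.32 in FB, and both treatments overlapped with MB. The RVE7L locus on A06 (BnaA06g12480D) was called higher in HX17_CA (3.10), HX17_CB (2.16) and HX58_CA (1.47). These calls were lost in 5, 2 and 6 of the 6 leave-one-out fits.

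**Figure D5:**
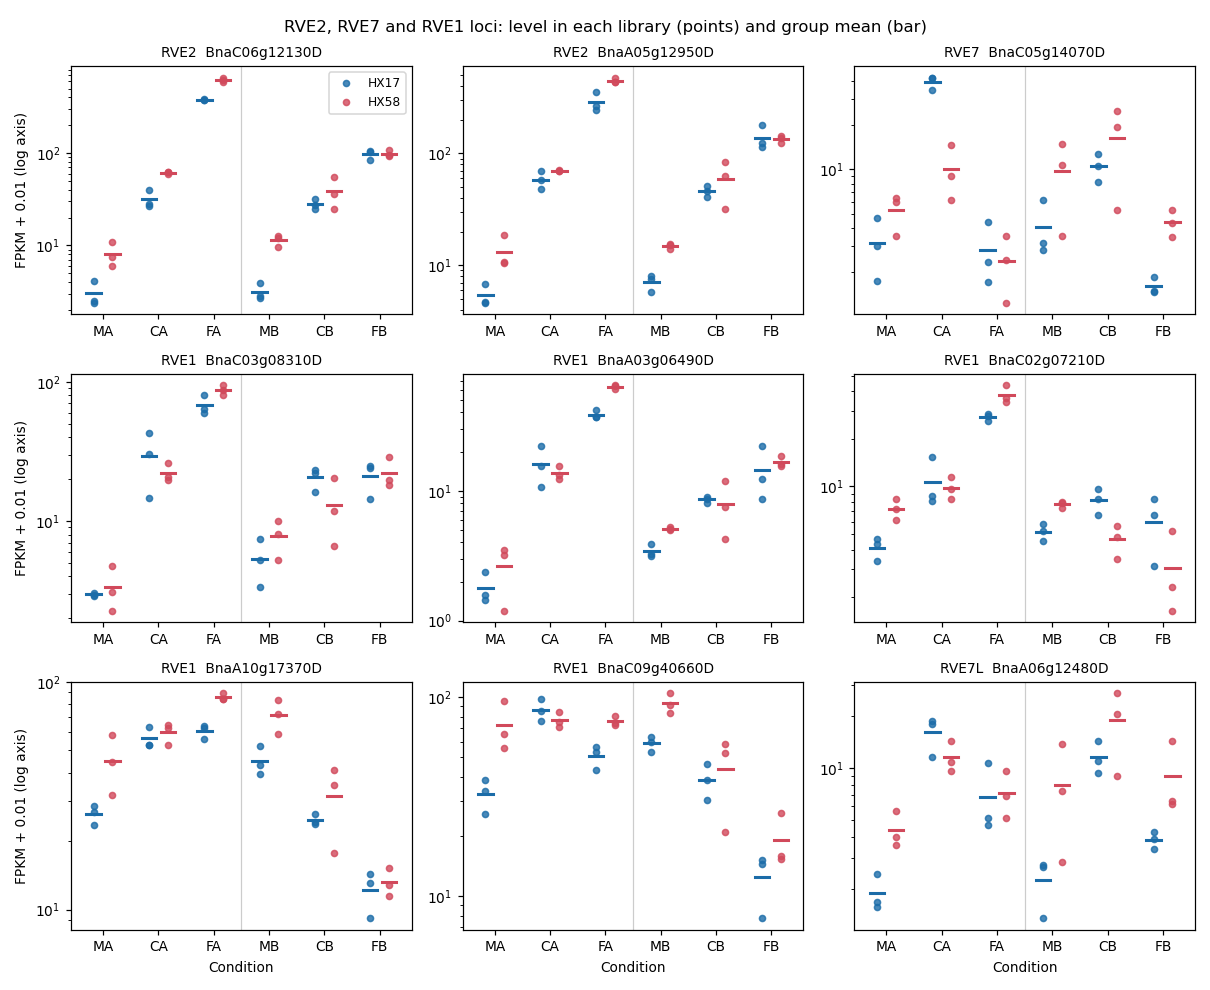
FPKM + 0.01 on a log axis for 2 RVE2, 1 RVE7, 5 RVE1 and 1 RVE7L loci in each library (points; bars are group means), HX17 in blue and HX58 in red. The RVE2 loci stand highest in FA of both varieties, at 243 FPKM or more in each library, and RVE7 stands highest in HX17_CA.

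Freezing was also set against chilling at the same pretreatment, which uses no control group. In HX58_FA vs HX58_CA, 6 of 29 members were higher (8.4% of all genes) and 13 lower (7.56%). BnaA10g00780D fell there by 2.33 ± 0.13 (SE, edgeR adjusted p = 1.82e-06), RVE8 BnaC05g43350D fell by 3.35 ± 0.41 (SE, edgeR adjusted p = 0.000186) and RVE2 BnaC06g12130D rose by 3.22 ± 0.10 (SE, edgeR adjusted p = 9.15e-08). In HX17_FA vs HX17_CA, 2 of 30 were higher (3.35%), both of them RVE2 loci, and 6 lower (0.867%). BnaA10g00780D fell by 2.85 ± 0.27 (SE, edgeR adjusted p = 0.000228) and RVE7 BnaC05g14070D by 3.75 ± 0.35 (SE, edgeR adjusted p = 0.000221). The count of 8 was 4 without HX17_CA replicate 2, HX17_FA replicate 1 or HX17_FA replicate 3. Without acclimation fewer members were called. HX17_FB vs HX17_CB had 3 of 29 higher (2.38%) and 3 lower (0.467%), a total that was 3 without HX17_FB replicate 3. HX58_FB vs HX58_CB had 0 of 30 higher (2.57%) and 1 lower (0.352%), with 20 members at an unadjusted p under 0.05 and 13 called by DESeq2. That 1 call, LHY BnaA10g00780D with a fall of 2.60 ± 0.41 (SE, edgeR adjusted p = 0.00459, lost in 5 of 6 leave-one-out fits), stands on a group in which replicate 2 was low, and the count was 5 without HX58_CB replicate 2 and 0 without HX58_CB replicate 3 or any 1 of the 3 HX58_FB libraries.

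Whether freezing against chilling differed with acclimation was tested as an interaction. In HX58, 7 of 30 members were called (6.32% of all genes), 3 of them positive, that is, higher in FA against CA than in FB against CB. These 3 were RVE2 BnaC06g12130D (1.80 ± 0.28, SE, edgeR adjusted p = 0.000765), RVE1 BnaA10g17370D (1.56 ± 0.31, SE, edgeR adjusted p = 0.00312, lost in 10 of 12 leave-one-out fits) and RVE1 BnaC02g07210D (2.35 ± 0.49, SE, edgeR adjusted p = 0.00421, lost in 10 of 12 leave-one-out fits). The 4 negative ones were the RVE6 loci BnaC03g15430D (-1.78 ± 0.25, SE) and BnaA03g12550D (-1.84 ± 0.31, SE) and the RVE4 loci BnaC03g00940D (-1.48 ± 0.31, SE) and BnaA03g00640D (-2.54 ± 0.34, SE). Their edgeR adjusted p were 0.000340, 0.00116, 0.00459 and 0.000250, and the call of BnaC03g00940D was lost in 11 of 12 leave-one-out fits. The count of 7 was 4 in 9 of the 12 fits. In HX17, 0 of 31 members were called (0.183% of all genes), with 12 at an unadjusted p under 0.05 and 1 called by DESeq2. Its edgeR estimate for RVE2 BnaC06g12130D was 1.52 ± 0.31 (SE, edgeR adjusted p = 0.0235).

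Between the varieties, 2 loci stood apart, each with counts near 0 in one variety only. LHY on C03 (BnaC03g00040D, 11795 to 14513, at the start of the chromosome sequence) had 2116 to 28172 counts in the 18 HX58 libraries and 0 to 32 in the 18 HX17 libraries, or 27.9 to 380.2 FPKM against 0 to 0.573. It was chosen here after its values were seen, as was RVE4 BnaCnng03200D, with 417 to 1250 counts in HX17 libraries and 0 to 13 in HX58 libraries. Both were called in all 6 comparisons of HX58 with HX17, in opposite directions, with edgeR adjusted p of at most 2.99e-05 and 3.74e-05. In HX58 the C03 locus fell as the other LHY loci did, from 349, 380.2 and 279 FPKM in MB to 71.9, 27.96 and 56.4 in CB and 27.9, 28.3 and 33.1 in FB, by 2.76 ± 0.30 (SE, edgeR adjusted p = 0.000129) and 3.51 ± 0.22 (SE, edgeR adjusted p = 1.77e-05). After acclimation it had 148, 237 and 164 in MA, 123, 94.2 and 98.1 in CA and 37.99, 35.7 and 35.4 in FA, with a fall in FA of 2.34 ± 0.21 (SE, edgeR adjusted p = 3.92e-05). In HX17_FB its 3 libraries held 2, 2 and 1 counts against 32, 14 and 23 in HX17_MB, a ratio of MB to FB of 18 with a 95% counting interval of 7.37 to 57.3. That comparison counts among the 18 lower ones of HX17_FB, and it was lost in all 6 leave-one-out fits.

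Of the other members, between 0 (CB) and 6 (MB) were called between the varieties. In the controls, HX58_MA vs HX17_MA had 5 of 31 members higher (5.32% of all genes) and 1 lower (5.37%), and HX58_MB vs HX17_MB had 6 higher (8.63%) and 2 lower (10.1%). In MB these included RVE2 BnaC06g12130D (1.76 ± 0.19, SE, edgeR adjusted p = 7.05e-05), RVE8 BnaA01g32200D (1.48 ± 0.25, SE, edgeR adjusted p = 0.00115) and LHY BnaAnng17890D (1.12 ± 0.17, SE, edgeR adjusted p = 0.000708, lost without HX17_MB replicate 1 or HX58_MB replicate 1). The MA count was 2 or 3 without any 1 of its 6 libraries, and the MB count was 4 without HX17_MB replicate 1. HX58_CA vs HX17_CA had 1 of 31 higher (5.59%) and 2 lower (5.9%), the lower ones being RVE7 BnaC05g14070D, which was lower by 2.11 ± 0.31 (SE, edgeR adjusted p = 0.000975, lost without HX58_CA replicate 3), and RVE4 BnaCnng03200D. HX58_FA vs HX17_FA had 3 of 30 higher (7.82%) and 1 lower (9.36%), a total that was 2 without HX17_FA replicate 1, HX58_FA replicate 1 or HX58_FA replicate 3. HX58_CB vs HX17_CB had 1 of 31 higher (5.02%) and 1 lower (5.65%), and HX58_FB vs HX17_FB had 2 of 30 higher (4.9%) and 1 lower (5.54%). The median log2 difference of the members was 0.99 in MA and 0.64 in MB, against 0.05 and 0.01 for all genes, and between -0.15 and 0.01 in the 4 treatments.

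The response itself was compared between HX58 and HX17 by the interaction of variety and treatment. For FB, 1 of 31 members was called (1.6% of all genes), RVE2 BnaC06g12130D, whose rise was smaller in HX58 by 2.04 ± 0.26 (SE, edgeR adjusted p = 0.000595) on the log2 scale. Its frozen levels of 85.0 to 105 FPKM in HX17 and 92.5 to 109 in HX58 overlapped, while its MB levels of 2.70 to 3.88 and 9.55 to 12.8 did not. For CA, FA and CB, 0 of 31, 0 of 32 and 0 of 32 members were called (0.169%, 0.23% and 1.92% of all genes). At an unadjusted p under 0.05 there were 14, 11 and 10 members, and DESeq2 called 1, 4 and 2. RVE7 BnaC05g14070D, called in HX17_CA and not in HX58_CA, had an interaction of -2.65 ± 0.52 (SE, edgeR adjusted p = 0.0224), so that its response was not shown to differ.

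The control groups MB and MA were compared as well, though the sources used here do not give the age of either. No member of 31 was called in either variety by edgeR. In HX17_MB vs HX17_MA 0.864% of all genes were called higher and 0.239% lower, with 7 members at an unadjusted p under 0.05 and 0 called by DESeq2, and in HX58_MB vs HX58_MA 0.00563% and 0.00938%, with 8 members at that p and 1 called by DESeq2. The 2 leading LHY loci had the higher mean in MB, with log2 differences of 0.82 ± 0.22 (SE, edgeR adjusted p = 0.0694) and 0.79 ± 0.22 (SE, edgeR adjusted p = 0.0841) in HX17 for BnaC05g00840D and BnaA10g00780D. In HX58 these were 0.58 and 0.57. RVE6 BnaC09g28680D was also higher in MB, at 9.78 to 18.3 FPKM against 3.84 to 6.37 in HX17_MA. In HX58 it had 16.2 to 21.8 in MB and 6.09 to 11.4 in MA.

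Other genes of the clock and of its outputs, the CBF loci among them, were counted from a list of 126 loci matched by protein name. The share of all tested genes called in the same direction stands in parentheses. The whole list had 17 of 80 tested loci higher (0.608%) and 3 lower (0.449%) in HX17_CA, 42 of 91 (5.26%) and 6 (2.63%) in HX17_FA, 19 of 84 (5.98%) and 8 (8.19%) in HX17_CB, and 40 of 99 (12.8%) and 9 (13.3%) in HX17_FB. In HX58 it had 17 of 84 (2.6%) and 13 (2.77%) in CA, 50 of 99 (9.42%) and 5 (7.26%) in FA, 23 of 93 (14.2%) and 16 (11.8%) in CB, and 45 of 107 (16.1%) and 10 (13.6%) in FB. Its median log2 fold change in HX17 was 0.39 in CA, 1.51 in FA, 0.21 in CB and 0.55 in FB, and in HX58 0.20, 1.24, -0.01 and 0.84, against all-gene medians between -0.05 and 0.04. Many of these loci, most CBF loci among them, passed the filter on low counts only through the group in which they were high. The counts and medians thus describe tested loci and not the list. They cannot show an excess over the shares and medians of all genes.

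Of 22 listed pseudo-response regulators, a family of clock repressors, 18 were tested in each comparison of HX17 with its control and 19 in each of HX58. In HX17, 8 were called higher (0.608% of all genes) and 2 lower (0.449%) in CA, and 9 (5.26%) and 4 (2.63%) in FA. HX17_CB had 10 higher (5.98%) and 2 lower (8.19%), and HX17_FB 10 (12.8%) and 4 (13.3%). In HX58 these were 8 (2.6%) and 7 (2.77%) in CA, with a median log2 fold change of -2.26, and 10 (9.42%) and 4 (7.26%) in FA. HX58_CB had 9 higher (14.2%) and 4 lower (11.8%), and HX58_FB 13 (16.1%) and 4 (13.6%). Some of these loci entered through the treated libraries, so that the counts cannot show an excess over these shares. The members of the family differed. All 3 tested APRR1 (TOC1) loci were called higher in all 8 comparisons, but in HX17_MB vs HX17_MA only 1 of them passed the filter, so that others entered through the treated libraries. APRR5 had 5 or 6 of its 6 tested loci called higher in each of the 8. Its leading locus BnaA06g26980D had at most 0.541 FPKM in any control library and at least 9.11 in every treated one. This count too may therefore rest on loci that entered through the treated libraries. APRR3 had 0 of 2 called in CA of either variety (log2 fold changes of -4.25 and -2.26 in HX58) and 2 of 2 higher in FB of both. APRR7 had 0 of 3 called in each of the 4 comparisons of HX17, while in HX58 3 of 4 were lower in CA, 2 of 4 higher in FB and 0 called in FA and CB. APRR9, a morning regulator, had all 4 tested loci lower in each of the 4 comparisons of HX58 and in FA and FB of HX17, and 2 of 4 lower in CA and CB of HX17.

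The leading APRR1 locus, BnaCnng43250D, measured 0.173, 0.294 and 0.0959 FPKM in HX58_MB, 50.1, 18.97 and 38.8 in HX58_CB and 77.5, 86.7 and 79.8 in HX58_FB. In HX17 it had 0.160, 0.0489 and 0.174 in MB, 20.1, 34.99 and 25.2 in CB and 40.2, 55.4 and 38.5 in FB. The treated libraries lay above the controls in both varieties. For APRR9 the leading locus BnaA04g26750D had 199, 237 and 207 FPKM in HX58_MA and 2.09, 6.29 and 5.05 in HX58_FA.

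CBF genes are the cold-induced activators of COR genes. Of 17 listed loci, 3 passed the filter between the controls of each variety, 4 to 7 in the comparisons of chilled leaves and 14 to 16 in those of frozen leaves, so that most entered only through the libraries in which they were high and their count of calls is not given. The 2 DRE1C loci (CBF2 in Arabidopsis) passed the filter between the controls as well. Both were called higher in 7 of the 8 comparisons, and 1 of 2 was in HX17_CB. Evening complex loci (ELF3, ELF4, LUX and relatives) were called in HX17 for 1 of 23 higher and 0 lower in CA, 5 of 24 and 0 in FA, 2 of 27 and 1 in CB, and 8 of 30 and 1 in FB. In HX58 these were 0 of 22 and 1 in CA, 9 of 29 and 0 in FA, 5 of 30 and 2 in CB, and 9 of 35 and 1 in FB. Some of these loci also entered only through the libraries in which they were high, so that the counts cannot be set against the shares of all genes. The leading LUX locus BnaA06g17950D had at most 0.515 FPKM in any control library and 11.2 to 31.2 in frozen leaves. ELF4 BnaC03g72320D had 0 in every control library, 0 to 0.607 FPKM in HX17_FA and 21.0 to 29.0 in HX58_FB. The leading ELF3 locus BnaA09g40710D ran only from 3.38 to 13.0 FPKM over all libraries. GIGANTEA, an evening gene, had 2 tested loci, both called higher in FB of both varieties, both lower in HX58_CA and neither in the other 5 comparisons. No locus matched the names LNK or COR27 and COR28.

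The genes whose pattern over the 12 group means was most like that of LHY BnaC05g00840D, among 34132 with a protein match and a mean CPM of 1 or more, encode PNSL2, a subunit of the chloroplast NADH dehydrogenase-like complex (Pearson r = 0.983 of log2(CPM + 1), n = 12 group means), MAKR6 (0.973), pheophytinase PPH (0.972), SPA4 (0.972) and an uncharacterized protein (0.970). For RVE8 BnaC05g43350D they encode PMI15 (0.971), the chaperone DNJ20 (0.970), an uncharacterized protein (0.965), the flavin monooxygenase GSOX2 (0.964) and ODO1 (0.964). Each r describes 12 means from the same libraries and depths, and the best of 34132 is high by selection. By Spearman's rho PPH ranked first for LHY and GSOX2 only 102nd for RVE8.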

How the data were processed

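Leaf RNA of 36 libraries (12 groups of 3) was analysed from the table the authors deposited, which holds read counts per gene and FPKM values per library. The submitters' processing notes name HISAT2 2.0.4 and HTSeq 0.9.1, and the reads were aligned to the Genoscope genome of Brassica napus, and the sources used here do not give the build. The deposited counts carry no normalization, and the FPKM the authors gave equal count divided by gene length and library total for all 38 members within 0.001. Columns of the authors' own fold changes, p-values and calls, and 36 columns of group means, were not used.

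Members were matched by protein text. The members and lists were chosen with earlier results of these data known. Library values are given for the 2 loci of highest mean CPM of each of LHY, CCA1, RVE1, RVE2, RVE6, RVE7 and RVE8, and for members called in 1 direction in 6 or more of the 8 comparisons with a control. Members outside this rule were named after their values were seen. The genes of like pattern were the 5 with the highest Pearson r.

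Counts were tested in R 4.3.3 with edgeR 4.0.16 (TMM, quasi-likelihood, genes filtered at a minimum count of 10 and total of 15, only the groups compared in each fit), over all genes. A call needed an adjusted p under 0.005 (Benjamini-Hochberg) and a fold change of 2. Fold changes are given on the log2 scale with their SE. The alternatives were DESeq2 1.42.0, RLE scaling, no filter, 1 model of all 36 libraries, the replicate block, the other control group, an adjusted p under 0.05 alone, and each library left out. The scripts were tested on simulated counts. Python 3.11.15, numpy 2.4.6, pandas 2.3.3 and matplotlib 3.10.9 were used for the rest. Library totals of 32214015 to 59290772 limit precision at loci of few counts, for which 95% counting intervals cover counting error only. No 2 libraries of a group agreed within sampling noise (lowest chi-square per degree of freedom 14.4).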

Additional observations from a re-analysis of the deposited data

Results flagged for a closer look

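Interaction tests called 7 members in all, and the 5 that fall under the rule for named genes are given here. The rise of RVE2 BnaC06g12130D after freezing without acclimation was smaller in HX58 than in HX17, with a log2 interaction of -2.04. In HX58 the difference between freezing and chilling depended on acclimation at all 5. Taken with its sign, it was higher after acclimation at RVE2 BnaC06g12130D (1.80) and RVE1 BnaA10g17370D (1.56). It was lower after acclimation at RVE6 BnaC03g15430D (-1.78), RVE6 BnaA03g12550D (-1.84) and RVE4 BnaC03g00940D (-1.48). The libraries differed in opposite directions at RVE1 BnaA10g17370D, where FA (83.9 to 89.2 FPKM) lay above CA (52.7 to 64.6) and FB (11.5 to 15.3) below CB (17.8 to 41.2). Neither of these differences was called on its own. At both RVE6 loci FA lay below CA and FB above CB. The fall from CA to FA was called at both, and the difference between FB and CB at neither. HX58_CB replicate 2, low at most members, belongs to this test, and without it the call of RVE4 BnaC03g00940D was lost and the other 4 held. Over all 12 leave-one-out fits of this test the calls of RVE4 BnaC03g00940D and RVE1 BnaA10g17370D were lost in 11 and 10, and the other 3 held. Groups of 3 libraries are too small for a test of single outlying samples.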

How the results depend on the processing

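Values below are the numbers of members called, after the number reported. No called value of a named locus reversed its direction under any alternative, and RLE scaling moved no count by more than 1.5 times. Values that were not called are not covered by the statement on direction. DESeq2 gave 12 for HX17_CA vs HX17_MA (6), 16 for HX17_FA vs HX17_CA (8), 14 for HX17_FB vs HX17_CB (6), 13 for HX58_FB vs HX58_CB (1), 1 for HX58_MB vs HX58_MA (0), and for the varieties 6 in CA (3), 4 in CB (2) and 5 in FB (3). For the interactions of variety it gave 1 with CA (0), 4 with FA (0), 2 with CB (0) and 3 with FB (1), and 1 for acclimation and freezing in HX17 (0). One model of all 36 libraries gave 10 for HX17_CA vs HX17_MA, 14 for HX17_FA vs HX17_CA, 14 for HX17_FB vs HX17_CB, 9 for HX58_FB vs HX58_CB, 6 and 4 for the varieties in CA and CB, and 1 for the interaction of variety and FA. Without the filter there were 13 for HX17_FA vs HX17_CA, 4 for HX58_FB vs HX58_CB, 5 for the varieties in CA and 1 for the interaction of variety and CA. Against the other control group HX17_CB had 8 (19).

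Calling at an adjusted p under 0.05 alone gave 13 for HX17_CA vs HX17_MA, 16 for HX17_FA vs HX17_CA, 14 for HX17_FB vs HX17_CB, 16 for HX58_CA vs HX58_MA (10), 12 for HX58_FB vs HX58_CB and 1 for HX58_MB vs HX58_MA. For the varieties it gave 16 in MA (6), 8 in CA, 7 in FA (4), 22 in MB (8), 5 in CB and 8 in FB, and for the interactions of variety 1 with CA, 4 with FA, 3 with CB and 3 with FB, and 1 for acclimation and freezing in HX17. The cause of these shifts was not tested, apart from the looser threshold itself.

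The replicate numbers did not pair the libraries: correlations of same-numbered deviations ran from -0.550 to 0.241 over 20 comparisons, and in 0 of them did every pair exceed 0.1. With the replicate block the counts were 2 for HX17_CA vs HX17_MA, 0 for HX17_FB vs HX17_CB, 6 for HX58_CA vs HX58_MA, 2 for HX58_FB vs HX58_CB and 2 for HX58_MA vs HX17_MA.

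With each library left out in turn, counts ran as follows. In HX17 they were 0 to 6 for CA vs MA, 10 to 14 for FA vs MA, 5 to 18 for CB vs MB, 16 to 21 for FB vs MB, 4 to 11 for FA vs CA, 3 to 5 for FB vs CB and 0 to 0 for MB vs MA. In HX58 they were 4 to 8 for CA vs MA, 20 to 22 for FA vs MA, 15 to 22 for CB vs MB, 20 to 23 for FB vs MB, 17 to 19 for FA vs CA, 0 to 5 for FB vs CB and 0 to 1 for MB vs MA. Between the varieties they were 2 to 3 in MA, 2 to 4 in CA, 2 to 5 in FA, 4 to 10 in MB, 2 to 2 in CB and 2 to 3 in FB. For the interactions they were 0 to 0 for variety and CA, 0 to 0 for variety and FA, 0 to 0 for variety and CB, 1 to 1 for variety and FB, and for acclimation and freezing 0 to 0 in HX17 and 4 to 7 in HX58.

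Of the called values of named loci, 180 of 912 with 1 library left out, 23 of 146 with the block and 12 of 105 with the other control fell short of the threshold. The order of the 12 groups was equal in FPKM and CPM for all named loci. Depth limits LHY BnaC03g00040D in HX17 and RVE8 BnaA01g32200D in frozen leaves, and shared reads limit near-identical copies.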
